A study of Homo sapiens with 2 samples.

Results

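Cadherins, protocadherins and claudins are families of adhesion proteins, some of which hold cells together at adherens and tight junctions. The arrays carried 130 probes for 97 such genes, out of 41000 transcript probes under 30982 gene names. The probes were chosen by gene symbol alone, as those starting with CDH and a digit, PCDH, or CLDN and a digit, and no measured value entered the choice. They fell into 5 type I cadherins, 12 type II cadherins, 5 other cadherins, 7 alpha, 18 beta and 17 gamma protocadherins, 14 nonclustered protocadherins and 19 claudins. Each of the symbols counted as a gene, pseudogenes included.

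The data were 2 one-color Agilent whole-genome arrays of Y79, an established human retinoblastoma line that grows in suspension. One array held RNA of siRNA-untreated Y79 cells. The other held RNA of siRNA-treated cells, taken 48 h after siRNA against Ep-CAM, an epithelial membrane glycoprotein. The study's methods state that both cultures had been exposed to AZC (5-azacytidine), an inhibitor of DNA methylation, whereas the sample labels name only the siRNA. The labels call the control untreated, so an effect of transfection and an effect of the Ep-CAM siRNA cannot be told apart. With 1 array per condition there was no replicate, and each ratio compares 2 hybridizations with no test between the conditions.

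Classical (type I and type II) cadherins bind their like on the neighboring cell in a calcium-dependent manner and hand the pull to the actin skeleton through catenins. Clustered protocadherins are encoded in tandem arrays on chromosome 5, where a choice among variable exons and their promoters gives neurons different surface identities. Claudins form the strands of tight junctions and set which ions pass between epithelial cells. Ep-CAM is known to weaken cadherin junctions and to associate with claudins in epithelia, and retinal neurons and photoreceptors depend on cadherins and protocadherins for their contacts.

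The processed signal of each spot, its brightness after the software subtracted background and corrected trends across the array, was divided by the median of the transcript spots of its array. That median was 48.9 for siRNA-untreated and 50.0 for siRNA-treated cells. The result is called the scaled signal, so that 1 is the middle of the array. Probes differ in how well they bind, so scaled signals of different probes do not rank transcripts. Whether a probe was well above background is the scanner software's own flag. Among the 153 negative control spots, 0 had this flag on the untreated array and 1 on the siRNA-treated array. The lowest scaled signal with the flag was 0.306 and 0.350 on the respective arrays. No spot of these genes was saturated or marked as an outlier.

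The target of the siRNA could not serve as a check of the labels. The single probe, listed as TACSTD1, was dim on both arrays, that is, not well above background, with a scaled signal of 0.320 before and 0.239 after siRNA. Of 10 photoreceptor and retinoblastoma markers, 5 were well above background in untreated cells, among them CRX (1.78), OTX2 (1.44) and the cone arrestin ARR3 (1.68). NRL, RCVRN, RXRG, NEUROD1 and PDE6H were not. After siRNA 4 had the flag, all 4 with a lower signal (log2 ratio -0.47 to -0.21, median -0.39), and THRB lost it. Their part in the differences given below was not tested. In untreated cells the flag was also set for 7 of 8 epithelial and 3 of 4 Müller glia marker genes. It was set for 3 of 4 endothelial and 3 of 4 fibroblast marker genes as well, and for 75.3% of all gene names. By their brighter or only probe, KRT8 had 12.1, VIM 47.4, VWF 2.50 and DCN 4.13. The second probes gave 0.362 for KRT8, 4.25 for VIM and 0.866 for VWF. GRHL2, GLUL, PECAM1 and LUM were dim. A probe well above background is therefore reported as a signal and not as proof that Y79 cells make the transcript.

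The probes that the comparisons turn on were read from the array files and are given in the design's coordinates (build hg17), 5′ to 3′. The first pair is shown because the probes are nearly the same sequence in 2 genes of the alpha cluster and gave different ratios. PCDHA1 lies at chr5:140148135-140148194 and PCDHA5 at chr5:140183630-140183689, both on the plus strand. Capitals mark the bases that are identical where they overlap, 46 of 47 bases.
PCDHA1: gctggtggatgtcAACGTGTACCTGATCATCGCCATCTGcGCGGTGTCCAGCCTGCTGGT
PCDHA5: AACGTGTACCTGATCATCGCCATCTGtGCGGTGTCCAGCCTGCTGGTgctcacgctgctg

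The next 4 probes come from beta protocadherin genes on the plus strand and are shown for their likeness and given with their scaled signals further on. They lie at chr5:140576162-140576221 (PCDHB13), chr5:140456848-140456907 (PCDHB2), chr5:140534872-140534931 (PCDHB7) and chr5:140607614-140607673 (PCDHB15). In PCDHB13 and PCDHB2 capitals mark the 48 identical bases of the 59 they share in register. In PCDHB7 they mark 44 of 55 bases identical to PCDHB13, and in PCDHB15 they mark 40 of 59.
PCDHB13: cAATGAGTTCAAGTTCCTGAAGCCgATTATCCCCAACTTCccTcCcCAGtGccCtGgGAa
PCDHB2: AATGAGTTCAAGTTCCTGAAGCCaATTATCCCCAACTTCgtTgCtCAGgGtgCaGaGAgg
PCDHB7: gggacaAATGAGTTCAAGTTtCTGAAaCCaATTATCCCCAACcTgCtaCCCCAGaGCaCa
PCDHB15: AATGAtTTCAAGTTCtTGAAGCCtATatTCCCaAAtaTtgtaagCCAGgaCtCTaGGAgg

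The last pair are the probe behind the largest ratio, CDH8 at chr16:60245198-60245257 on the minus strand, and a CDH23 probe at chr10:73136750-73138857 on the plus strand. The latter's 60 bases are spread over 2108 bases of the genome, so that it reads across a splice junction. No capitals are used here.
CDH8: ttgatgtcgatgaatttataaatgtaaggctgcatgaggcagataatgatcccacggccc
CDH23: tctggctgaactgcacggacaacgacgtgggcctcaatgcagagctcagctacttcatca

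Most genes of the 3 families gave a signal in suspension-grown Y79 cells. In untreated cells 95 of 130 probes (73.1%, 95% Wilson interval 64.9 to 80.0%) were well above background, against 70.1% of all probes. On the siRNA-treated array 94 probes (72.3%) were, against 67.6% of all probes. By gene, 77 of 97 (79.4%) had at least 1 such probe in untreated cells and 76 in siRNA-treated cells, against 75.3% and 73.0% of all gene names. These intervals cover counting error only, and the shares of the families lay close to those of the whole array.

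**Figure D1:**
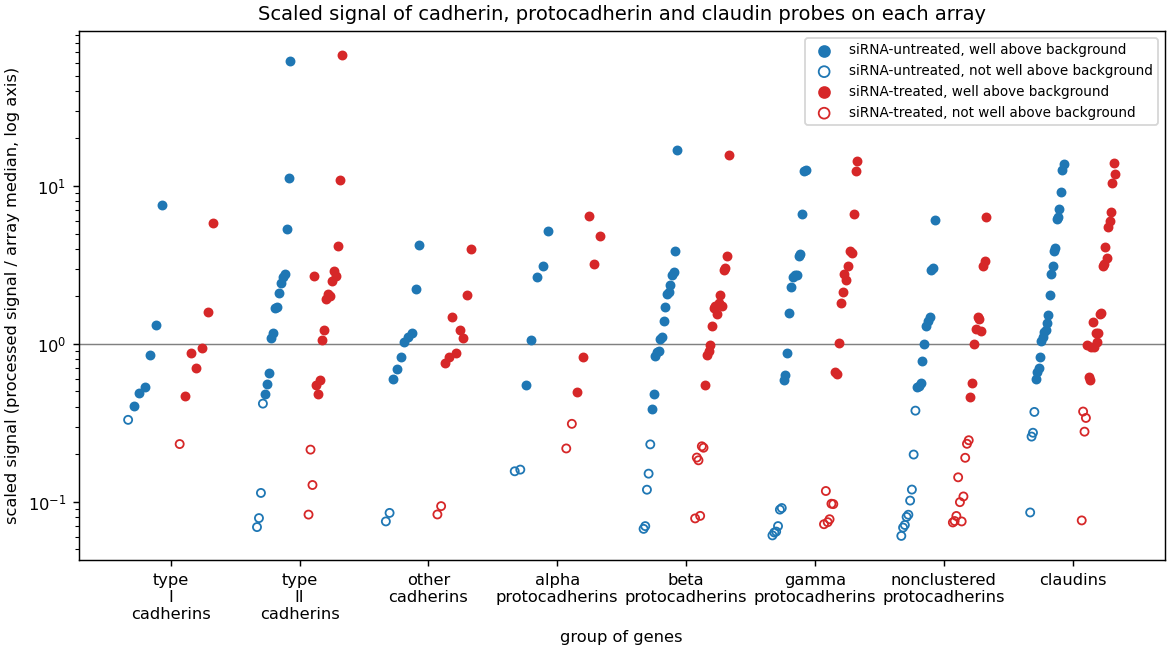
Scaled signal (vertical axis, logarithmic, 1 is the array median) of each probe on the siRNA-untreated (blue) and siRNA-treated (red) array, by group of genes. Filled circles are well above background and hollow ones are not, and the 3 probes of a Y-linked gene are not drawn. One CDH24 probe stands at 62.2 and 67.2, and in every group the ranges of the 2 arrays overlap.

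The scaled signals were spread around the middle of the array. The median over the 130 probes was 1.05 without and 1.08 with siRNA, and 68 and 69 probes respectively were at 1 or more. Few were bright: 7 probes (5.38%) reached 10 in untreated cells, against 9.66% of all probes. These 7 were named CDH24, CDH22, PCDHB13, PCDHGA7, PCDHGA8 (by a probe that lists other genes as well), CLDN3 and CLDN11.

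All 5 type I cadherins were well above background on both arrays. CDH3, placental cadherin, had the highest scaled signal of the group, 7.53 in untreated cells and 5.84 after siRNA. CDH4, retinal cadherin, had 1.32 and 1.60 by one probe, 0.530 and 0.704 by another, and was dim by the third. CDH15, a muscle cadherin, had 0.857 and 0.949. CDH2, the neural cadherin of the retina, gave only 0.490 and 0.881.

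CDH1, epithelial cadherin, was printed 10 times per array, so its measurement error can be read directly. Its spots ranged from 0.241 to 0.538 in untreated cells, with 6 of 10 well above background, and from 0.293 to 0.577 in siRNA-treated cells, with 7 of 10. The mean over the 10 spots went from 0.421 ± 0.108 (SD) to 0.474 ± 0.0858. These 2 ranges overlapped almost wholly, at a level just over the lowest signals that carried the flag.

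Among type II cadherins 11 of 12 genes were well above background in untreated cells and 12 of 12 in siRNA-treated cells. CDH24 was read at 62.2 in untreated cells and 67.2 after siRNA by one probe and at 0.659 and 0.592 by the other. The brighter CDH24 probe consisted of G and C for 81.7% of its bases, the darker for 41.7%. CDH22 was at 11.3 and 10.9 by one probe and dim by the other. CDH7 followed with 5.35 and 4.16, and its second probe with 1.10 and 1.07. CDH9, CDH12, CDH18 and CDH5 (vascular endothelial cadherin, 2.10 and 2.02) had a probe above 2 on both arrays.

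Of the 5 other cadherins only CDH17, liver-intestine cadherin, was dim on both arrays. CDH23, the long cadherin that joins stereocilia in the inner ear and is mutated in a syndrome of deafness and retinal degeneration, had 5 probes, all well above background, with scaled signals from 0.599 to 4.24 in untreated cells. Its partner at the tip link, PCDH15, was dim on both arrays by both of its probes (0.0688 and 0.0829 in untreated cells). CDH13, which lacks the cytoplasmic tail of the family, had 0.697 and 0.823, and CDH16, kidney cadherin, had 1.17 and 1.09.

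Claudins were well above background for 16 of 19 genes on both arrays, and CLDN16, CLDN22 and CLDN23 were not. CLDN11, the claudin of myelin, had 13.8 in untreated cells and 11.9 after siRNA, and its second probe had 3.85 and 4.12. CLDN3, a claudin of many epithelia, had 12.6 and 14.1 by one probe, and 1.54 and 1.55 by the other. CLDN9 had 9.19 and 10.5 by one probe and 4.06 and 3.52 by the other. CLDN14, which serves the organ of Corti, had 7.18 and 6.80, while CLDN15 and CLDN6 lay between 5.52 and 6.36 on the 2 arrays.

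Claudins of barriers and epithelia were read as well. CLDN5, the claudin of the blood-brain and blood-retina barriers, gave 3.12 and 3.18 by one probe and 1.22 and 1.03 by the other. CLDN4 gave 1.19 and 1.17. CLDN1 gave 0.664 and 0.622 by one probe and was dim by the other.

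The clustered protocadherins were read from 47 probes along chromosome 5. Well above background in untreated cells were 5 of 7 alpha, 14 of 18 beta and 12 of 17 gamma genes. The same numbers were found in siRNA-treated cells but for PCDHB17, a pseudogene, which lost the flag and left 13 beta genes. Dim probes were found in all 3 clusters, with probes well above background on both sides of them.

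**Figure D2:**
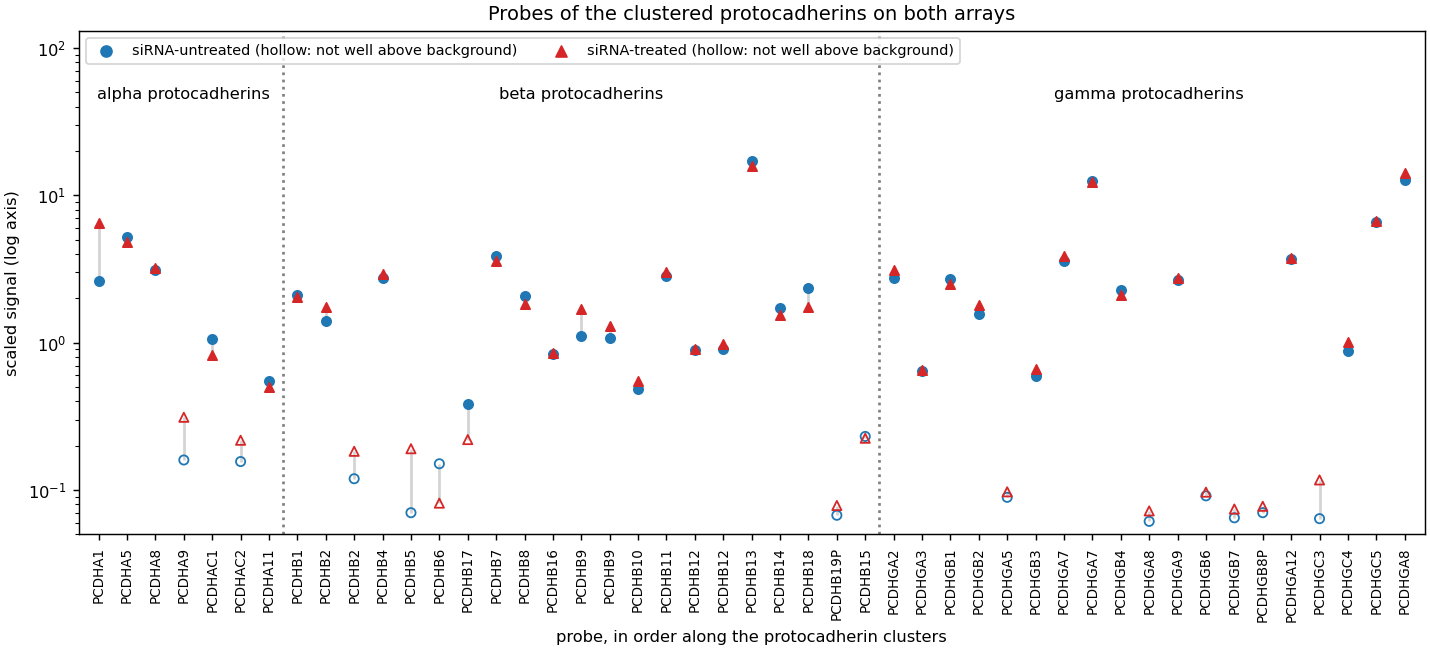
Scaled signal (vertical axis, logarithmic) of the 47 clustered protocadherin probes in their order along the genome, on the siRNA-untreated (blue circles) and siRNA-treated (red triangles) array, with hollow symbols for probes not well above background. PCDHA1, at the left end, is the probe with the largest difference between arrays, and PCDHB13 (17.0 and 15.7) is the brightest.

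Many of these probes read more than 1 gene. Of the 130 probes, 12 listed transcripts of several genes, and 11 of the 12 were clustered protocadherins. The PCDHA1 probe also listed PCDHA6, PCDHA7 and PCDHA8, and the PCDHA5 probe listed PCDHA8, PCDHA10 and PCDHA12. No probe of the array listed more than 4 RefSeq transcripts, and 6 probes of the families reached that number, so such lists may be incomplete. The probe named PCDHA11 lay downstream of the other alpha probes and also listed PCDHA9, PCDHA12 and PCDHAC1. PCDHA11 was counted as well above background through this probe alone. The last probe of the gamma cluster, named PCDHGA8, lay downstream of every variable exon and listed PCDHGA2, PCDHGA11 and PCDHGA12 as well. It gave 12.7 before and 14.3 after siRNA, whereas the PCDHGA8 probe within the variable region was dim with 0.0614 and 0.0722. The first of these values therefore belongs to several genes together.

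Within the beta cluster, PCDHB13 had 17.0 and 15.7, PCDHB7 had 3.90 and 3.60, and PCDHB2 had 1.40 and 1.74 by a probe that also lists PCDHB3. The second PCDHB2 probe was dim with 0.119 and 0.183. PCDHB15 was dim with 0.231 and 0.225. The probes of PCDHB13, PCDHB7, PCDHB2 (the first) and PCDHB15 are those whose sequences are printed above. In the gamma cluster PCDHGA7 gave 12.5 and 12.4 by one probe and 3.60 and 3.86 by the other. PCDHGC5, at the 3′ end of the variable region, gave 6.60 and 6.65. The C-type genes PCDHGC3 and PCDHAC2 were dim, whereas PCDHGC4 (0.875 and 1.01) and PCDHAC1 (1.06 and 0.832) were not.

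Nonclustered protocadherins had 10 of 14 genes well above background in untreated cells and 9 in siRNA-treated cells. PCDH1 had the highest scaled signals of the group, 6.05 and 6.32 by one probe and 2.93 and 3.12 by the other. PCDH10 had 3.02 and 3.37 by one probe and was dim by the other. PCDH21 (now CDHR1), a cadherin at the base of photoreceptor outer segments, had 1.29 and 1.47 by one probe and 0.542 and 0.460 by the other. PCDH9, PCDH15, PCDH18 and PCDH20 were dim by every probe on both arrays. PCDH7 had 1 of 3 probes well above background.

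Whether a probe was well above background moved with its base composition. Among the probes with under 40% G and C, 17 of 43 (39.5%) were well above background in untreated cells, and among the others 78 of 87 (89.7%) were. Over all probes of the array the same shares were 44.3% and 84.7%. The nonclustered protocadherins had the lowest median, 38.3% G and C, and 8 of 8 of their probes at 40% or more were well above background against 3 of 12 below it, leaving out the Y-linked gene. In the gamma cluster 13 of 14 probes at 40% or more had the flag and 0 of 5 below it. Across 127 probes, Spearman's rho between G and C content and scaled signal was 0.68 for the untreated array and 0.70 for the other. It was 0.07 between G and C content and the log2 ratio of 92 probes measured on both arrays. These are values across probes that share 2 hybridizations, and the part of base composition in the levels was not tested. A dim probe is not evidence that its gene is silent.

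**Figure D3:**
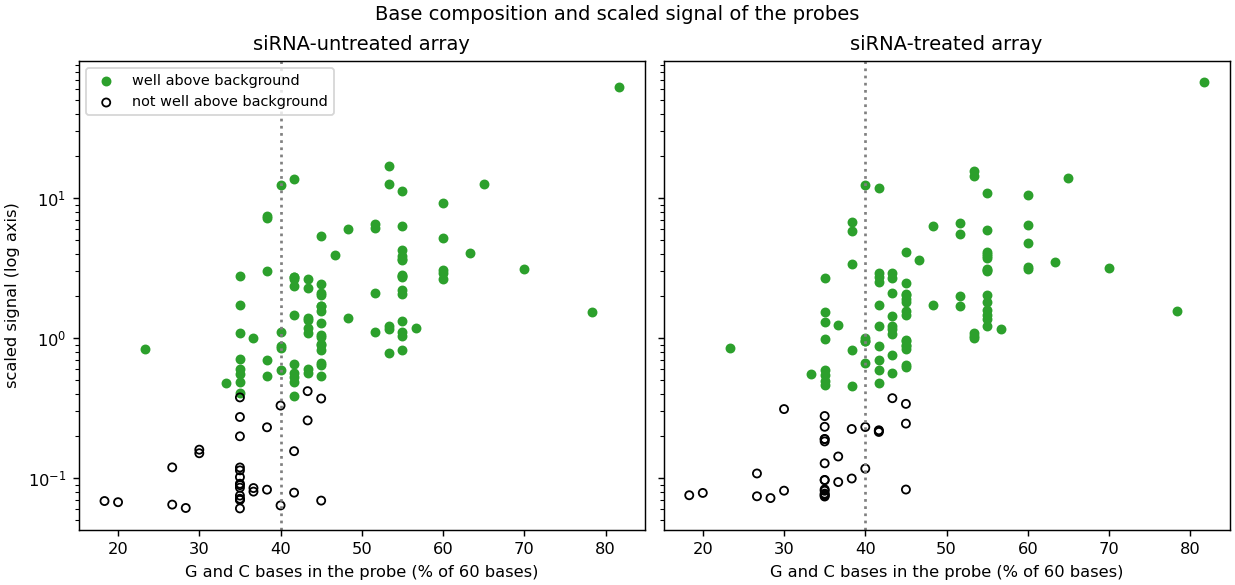
Share of G and C in the 60 bases of each probe (horizontal axis, percent) against its scaled signal (vertical axis, logarithmic) on the siRNA-untreated (left) and siRNA-treated (right) array. Green circles are well above background and hollow ones are not, the dotted line marks 40%, and most hollow circles lie to its left. The CDH24 probe stands apart at the upper right with 81.7%.

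The siRNA comparison asked whether the adhesion genes differed after treatment against Ep-CAM. Ratios are given as log2 of siRNA-treated over siRNA-untreated scaled signal, and a probe was called higher at 1 or more and lower at -1 or less, which is a 2-fold difference. A probe dim on only 1 array gives a bound. Of the 96 probes with the flag on either array, 2 were called higher and 0 lower, against 1.27% and 0.927% of all probes. The 2 were CDH8 and PCDHA1.

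Over the 93 probes measured on both arrays the median log2 ratio was 0.03, the SD was 0.27 and the range was -0.44 to 1.29. For all 26992 probes of this kind the median was -0.03 and the SD 0.33. Of the 93, 55 were above and 38 below 0, whereas 12133 of the 26992 were above 0. The sign of the median depended on the processing, and normexp on all spots gave -0.11, with -0.20 for all probes. Of the 93, 5 lay at least 0.5 from 0, against 10.6% of all probes. The error that the software gives each signal amounts to 0.20 to 0.42 on the log2 ratio. By this error 72 of 93 probes (77.4%) were within 1 error of 0, and 5 (5.38%) were beyond 2 errors, against 11.6% of all probes. The 5 were PCDHA1, CDH2, CDH23, CLDN8 and PCDHB9.

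**Figure D4:**
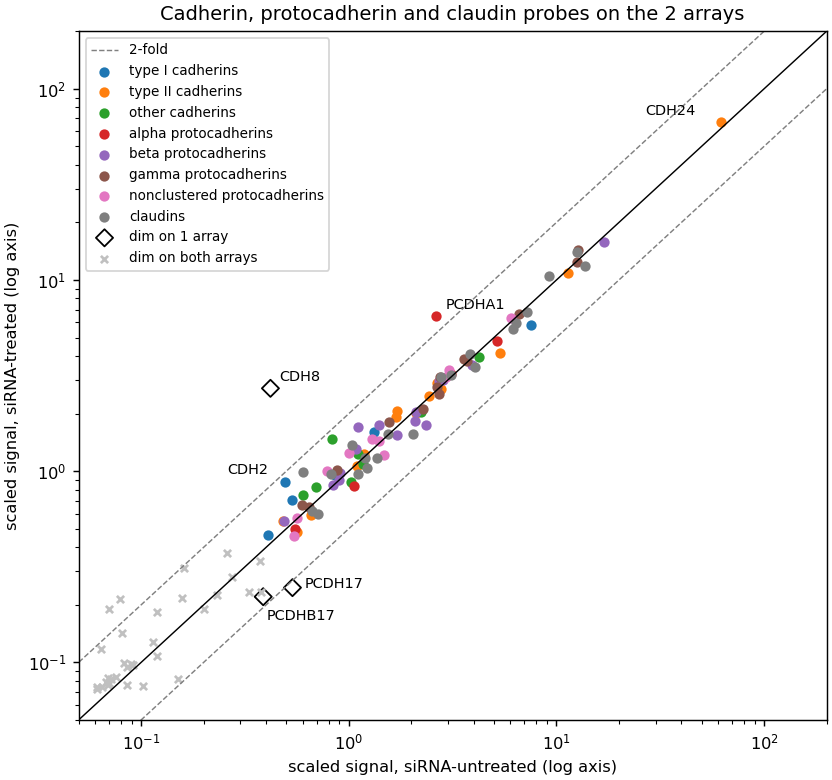
Scaled signal on the siRNA-treated (vertical axis) against the siRNA-untreated array (horizontal axis), both logarithmic, for each probe outside the Y-linked gene. Dashed lines mark a 2-fold difference, diamonds are probes dim on 1 array and crosses are dim on both. Only CDH8 and PCDHA1 lie above the upper line among probes that were not dim on both arrays. PCDH17 lies just under the lower line by its own dim signal, which gives only a bound.

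CDH8, a type II cadherin of the nervous system, was dim in untreated cells (0.419) and well above background in siRNA-treated cells (2.71). Its dim signal lay above the lowest flagged signal of that array, so its bound equals the plain ratio. By that ratio it was 6.47-fold higher, a log2 ratio of 2.69 ± 0.48 by the software's error. PCDHA1 went from 2.64 to 6.47, a log2 ratio of 1.29 ± 0.21. The nearly identical PCDHA5 probe went from 5.20 to 4.82, a log2 ratio of -0.11. Neither difference has a replicate.

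Both called probes lay in one corner, from row 355 to row 532 and from column 43 to column 85, which was set apart after the positions of changed probes had been seen. The corner held 16.8% of transcript spots. Within it 5.34% of all probes were called higher and 2.17% lower, and outside it 0.434% and 0.669%. Of the 54 measured probes within 5 rows and 5 columns of CDH8 the log2 ratios had an SD of 0.89, and 19 of 74 probes there were called higher. Around PCDHA1 the SD was 0.50, and 9 of 74 were called higher. The 8 measured probes of the 3 families in the corner had an SD of 0.59, and the 84 outside it had 0.23, leaving out CDH1, whose spots lay on both sides. Outside the corner 0 probes of these families were called. The part of array position in the 2 calls was not tested. With normexp background correction fitted on all spots, or with the raw series values, 0 probes of the families were called higher. Over all probes the higher calls also fell under these settings, from 372 to 45 and 89 respectively.

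**Figure D5:**
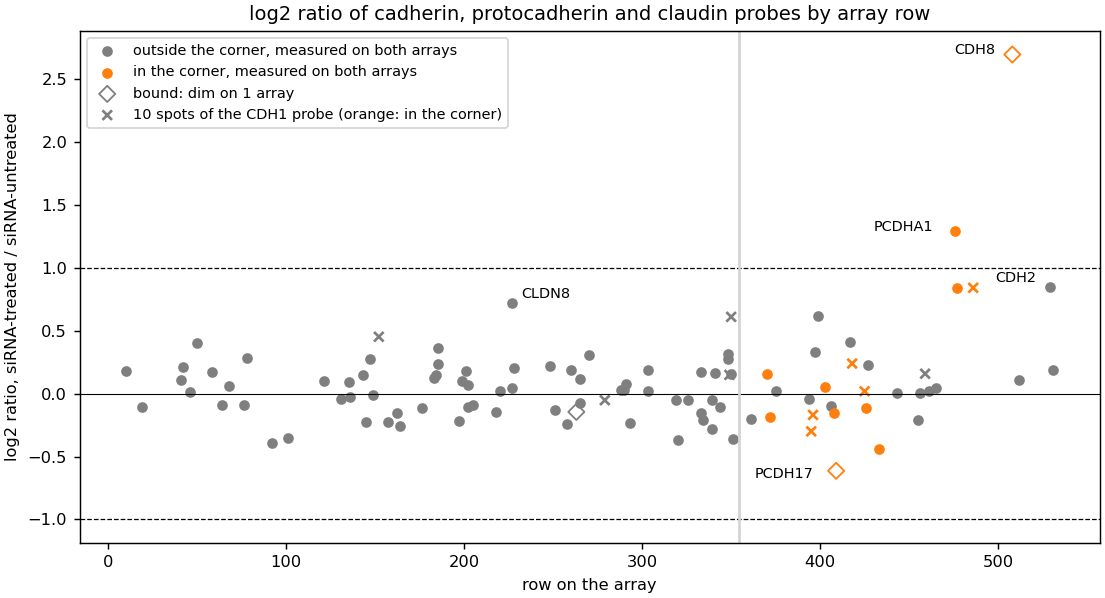
log2 ratio, siRNA-treated over siRNA-untreated (vertical axis), of each probe against its row on the array (horizontal axis). Orange symbols lie in the corner, gray ones outside it, diamonds are bounds and crosses are the 10 spots of the CDH1 probe, with dashed lines at a 2-fold difference. CDH8 and PCDHA1 lie beyond the upper dashed line at rows 508 and 476.

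Short of 2-fold, CDH2 went from 0.490 to 0.881, a log2 ratio of 0.85 ± 0.34, outside the corner. CLDN8 went from 0.599 to 0.984, a log2 ratio of 0.72 ± 0.28, also outside it. Both were smaller under the other background settings. Normexp added an offset of 50, about the median signal of each array (48.9 and 50.0), and the raw series values had no background subtracted. At signals this low either setting shrinks a ratio whatever its source, so the smaller values do not decide whether the differences were real. With normexp on all spots or without the 1 spot dimmer than its surroundings, and with the raw series values, CDH2 gave 0.27, 0.21 and 0.28, and CLDN8 gave 0.22, 0.24 and 0.18. For PCDHB9 the 2 probes gave 0.61 and 0.27, and the first gave 0.15, 0.31 and 0.26 under these settings. CDH23 had 0.84 at the junction-spanning probe, which lies in the corner, and -0.13 to 0.33 at its other 4 probes, which do not. In the other direction PCDHB18, whose probe lies in the corner, gave -0.44, and -0.19 after subtraction of the local median. CLDN10 gave -0.39 and CDH3 -0.37, outside the corner. CDH7 gave -0.36 and -0.04 by its 2 probes, also outside it, and the first gave -0.16 after subtraction of the local median. None of these reached the threshold for a call. At the looser ratios in the series text, above 1.5 and below 0.55, 6 probes of the families were higher and 0 lower, against 4.02% and 1.68% of all probes.

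PCDH17 was well above background in untreated cells (0.535) and dim in siRNA-treated cells (0.246), at least 1.53-fold lower, in the last column of the array and within the corner. PCDHB17 went from 0.387 to a dim 0.220, a bound of -0.15. With CDH8 these were the only 3 probes whose flag differed between arrays. Over all probes 1.64% gained the flag and 4.10% lost it.

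For CDH1 the log2 ratios of the 10 spots ranged from -0.30 to 0.84, with a mean of 0.19 ± 0.35 (SD over spots of 1 hybridization each). In 7 of 10 spots the siRNA-treated signal was higher. A difference of this size was not detectable at a signal this close to background, and the spots are not replicates of the culture.

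Several probes of a gene did not always give the same reading. In all, 26 genes had several probes, and in 10 of these 1 probe was dim on both arrays and another was not. In the 15 genes with several measured probes the median range of log2 ratio between probes was 0.27 and the largest 0.97, in CDH23. For 194 probes that were printed repeatedly and well above background on both arrays, the median SD of the log2 ratio between spots was 0.14. For the CDH1 probe, near background, that SD was 0.35. PCDH21 gave 0.19 and -0.24, CLDN9 0.19 and -0.21, and CLDN11 0.10 and -0.21 by their 2 probes each.

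Group by group, the median log2 ratio was 0.23 for type I, -0.0043 for type II and 0.03 for the other cadherins. It was -0.11 for alpha, 0.02 for beta, 0.05 for gamma and 0.09 for nonclustered protocadherins, and -0.08 for claudins. Gamma protocadherins spread the least, from -0.11 to 0.22, with 10 of 13 probes above 0. None of these 13 lay in the corner, whereas 4 of 15 measured beta probes did. Outside the corner the SD was 0.11 for gamma, 0.17 for alpha and 0.20 for beta protocadherins. Among claudins 9 of 21 were above 0.

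The partners of these proteins were looked at as lists, chosen with earlier results of these data known. Of 14 catenin and plaque genes, 12 were well above background in untreated cells, against 75.3% of all gene names. By probe 16 of 25 (64%) had the flag, against 70.1% of all probes. CTNNB1, beta-catenin, went from 126 to 113 by one probe (log2 ratio -0.15) and from 4.35 to 3.05 by the other (-0.51). The list's median was -0.11 over 16 measured probes. CTNND1, which encodes p120 and keeps classical cadherins at the surface, was dim by 4 of 4 probes. CTNNA2, the neural alpha-catenin, was called higher by one probe, from a dim 0.362 to 0.806 (log2 ratio 1.15), and had -0.06 by the other.

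Among 8 desmosomal genes, DSG2, DSC2, DSG4 and DSP were well above background, with log2 ratios of -0.12 to 0.17. By probe 4 of 9 (44.4%) had the flag in untreated cells, against 70.1% of all probes. The 14 tight junction partners each had a probe well above background. By probe 18 of 26 (69.2%) had the flag in untreated cells, against 70.1% of all probes. The median log2 ratio was 0.11 over the 18 measured probes. TJP3 gave 10.3 and 11.5, and occludin (OCLN) gave 0.511 and 0.392 by one probe and was dim by the other. JAM2 had the largest ratio of that list, 0.86, from a probe in the corner. Of the very large cadherins of the FAT, Dachsous and CELSR kind, 7 of 8 genes were well above background in untreated cells. By probe 8 of 10 (80%) were, and the measured log2 ratios lay between -0.33 and 0.13. DCHS1 passed only in siRNA-treated cells, with a bound of 0.65 in the corner.

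Repressors of classical cadherin genes were read as well. SNAI1, SNAI2, SNAI3, TWIST1, TWIST2, ZEB2 and TCF3 were well above background on both arrays, and ZEB1 was dim. Their log2 ratios ran from -0.30 (SNAI3) to 0.15 (SNAI1). None was called in either direction.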

How the data were processed

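The deposited files hold spot intensity values made by the authors with Agilent Feature Extraction (9.5.3.1 per the file headers) on build hg17. The series also has a table of intensity values, which equalled the authors' raw median brightness of each spot. After removal of control and outlier spots, signals were scaled to the 50th percentile of their array, floored at 0.01 and turned into log2. Repeated spots were averaged, and the flag of a repeated probe was that of 50% or more of its spots. A probe dim on 1 array gave a bound, computed against the higher of the lowest flagged signal of that array and its own signal. Where its own signal was the higher, as for CDH8, CTNNA2 and DCHS1, the bound is the plain ratio. Probes were named by their listed accessions in RefSeq (120) or by symbol (10). With 1 array per condition no test was run, and the number of arrays limits the precision.

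The genes and lists were chosen with earlier results of these data known. By rule, called genes, the brightest genes of each group and a set of textbook genes were named with all their probes, and up to 4 genes per list. The genes singled out for a log2 ratio short of a call, and for a dim probe, were named after their values were seen. One cadherin and 1 claudin are not reported here. Alternatives were other scalings, background corrections, filters, thresholds and array regions. Normexp was run with an offset of 50 in limma 3.58.1 (R 4.3.3) and the rest in Python 3.11.15 with pandas 2.3.3.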

Additional observations from a re-analysis of the deposited data

How the results depend on the processing

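The 2 higher calls (CDH8 and PCDHA1) were kept, and the lists had 1, under the 75th percentile, quantile, unscaled, shared-probe median, floor of 5 and local-median settings. Without the corner the count of higher calls was 0. With normexp on all spots, or with the series value table, it was 0, and the lists also had 0. Over all probes these settings gave 45 and 89 higher calls, against 372 in the main setting. Lower calls over all probes were 1056 and 80, against 272. With normexp fitted without the 1 spot that its surroundings outshone, the lists had 0, CDH8 a bound of 1.20 and PCDHA1 a log2 ratio of 1.02. With both arrays required to be well above background, 1 probe and 0 list probes were called higher. Without a filter on dim probes there were 4 higher and 1 lower calls, and the lists had 2 and 2. At ratios above 1.5 and below 0.55, 6 probes of the families and 3 of the lists were higher. The median log2 ratio over the families stayed between -0.11 and 0.07. The lowest value came from normexp on all spots, which moved the median of all probes to -0.20. Scaled to the 75th percentile, the median level was 0.328 and 0.340. Counts of probes well above background ran from 81 to 114. For the brightest probe of each of 77 genes of the families, named in the text or not, 774 alternative log2 ratios were computed. Of these, 661 stayed within 0.14 of the main value and 113 moved further. A turn of direction was counted only for the 2 called genes, CDH8 and PCDHA1, and 0 were found. Ratios short of a call did change sign. With normexp on all spots CDH24 went from 0.11 to -0.64, CLDN3 from 0.16 to -0.44 and CDH19 from -0.23 to 0.11. Fitted without the 1 spot, normexp kept their signs, with 0.0039, 0.12 and -0.16, whereas CDH12 went from 0.12 to -0.03.

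Low signals near background, a single array per condition and several genes per probe limit these values. No paired analysis was possible because each condition had 1 array.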

Other observations

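Promoter windows were available for 72 of these genes in RefSeq (GRCh38.p14), each of 300 bases that lie mostly upstream of the start of the gene. The number of CG steps in the window, the letters at which cytosine methylation is written and AZC acts, had a median of 8.5, against 14 over 35116 windows in the table. For genes well above background in untreated cells it was 8.5 (58 genes), and for the others 9 (14 genes). By group the median was 7 for alpha and beta and 7.5 for gamma protocadherins, and 15.5 for nonclustered protocadherins. The windows describe the reference sequence and not methylation, which was not measured in these data.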
